A study of Mus musculus with 36 samples.

Results

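The Reep genes (receptor expression enhancing proteins) were followed in mouse cerebellum and hippocampus after deletion of 1 or both alleles of Pogz, a chromatin regulator. The family was taken as Reep1 to Reep6, 6 of the 24421 genes counted in each tissue, and all 6 passed the filter on low counts in both tissues. The family was selected on the genotype values of Reep6, which fell with allele loss in both tissues, so the genotype values of Reep6 are given as a description without a test. Tested were the genotype effects on its 5 paralogs. For all 6 genes, the differences between tissues and between the sexes were tested, and whether loss of 1 allele gave the midpoint on the log2 scale.

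The animals were adult C57Bl/6 mice, 6 per genotype, with 3 males and 3 females in each, and every animal gave both tissues (36 libraries of poly(A) RNA). Controls were Pogzfl/fl without Cre, cKO+/- mice were NesCre/+; Pogzfl/+ and cKO-/- mice were NesCre/+; Pogzfl/fl. The Nestin promoter drives Cre in neural progenitors, so neurons and most glia lose the floxed exons while microglia and vessels keep them. Cre was present in both mutant genotypes and absent from the controls, and its effect cannot be told apart from allele loss in any comparison with controls.

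REEP proteins are small hairpin membrane proteins that bend the membrane of the endoplasmic reticulum (ER) into tubules. REEP1 to REEP4 form a subgroup that also ties the ER to microtubules, and REEP5 and REEP6 form the other subgroup, close to the yeast protein Yop1. The family was named for its ability to raise the surface level of odorant receptors in cultured cells. Mutations of REEP1 and REEP2 cause hereditary spastic paraplegia, and mutations of REEP6 cause retinitis pigmentosa.

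Reads of 43 bases can be shared between paralogs, so the annotated coding transcripts of the family (GENCODE M1 on NCBIM37) were searched for common stretches. No window of 43 bases was shared between members of the family. Reep3 shared 25 of its 2963 windows (0.844%) with genes outside the family, and the other 5 members shared none. The coding sequence of Reep6 was 65.1% identical to that of Reep5 over the aligned bases and 56.3% to 61.5% identical to those of Reep1 to Reep4. The longest exact run that Reep6 shared was 11 bases with Reep5 and 9 bases with each of the others. The 60 coding bases of Reep6 that matched Reep1, Reep3 and Reep4 best are printed to show how far the paralogs differ even there. Capitals mark, in Reep6, the 24 bases common to all 4 genes and, in the others, the bases identical to Reep6.
Reep6: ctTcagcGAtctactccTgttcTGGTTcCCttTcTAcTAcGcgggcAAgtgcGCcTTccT
Reep1: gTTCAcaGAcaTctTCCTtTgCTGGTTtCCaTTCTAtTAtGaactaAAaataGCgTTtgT
Reep3: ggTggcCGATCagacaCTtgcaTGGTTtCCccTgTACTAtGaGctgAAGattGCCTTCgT
Reep4: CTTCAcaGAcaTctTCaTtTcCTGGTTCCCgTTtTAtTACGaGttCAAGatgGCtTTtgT
The stretch covers bases 300 to 359 of the Reep6 coding sequence and bases 159 to 218 of the other 3, with 58.3%, 55% and 65% of bases identical to Reep6 in Reep1, Reep3 and Reep4. No exon of any member overlapped an exon of another gene in the deposited annotation.

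Reep6 lies on chromosome 10 (GRCm38 chr10:80330145-80336441, plus strand) and has annotated transcripts with and without exon 5 of 6, a coding exon of 81 bases (27 codons) at chr10:80334713-80334793. Inclusion of this exon marks the form of the protein known from rod photoreceptors. The exon is shown in capitals with 20 bases of the flanking exons of the spliced transcript on each side.
Reep6 exon 5: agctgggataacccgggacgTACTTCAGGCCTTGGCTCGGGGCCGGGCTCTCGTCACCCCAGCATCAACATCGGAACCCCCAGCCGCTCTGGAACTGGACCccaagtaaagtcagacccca
The deposited counts are totals per gene, so the values below do not separate transcripts with this exon from those without it.

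In control brain, Reep5 and Reep2 made up most of the family, and Reep6 was among its low members. On the scale of CPM (gene counts scaled to a common library size) per kilobase of exon, the level in control cerebellum was 114 ± 6.81 for Reep2, 111 ± 9.72 for Reep5, 23.7 ± 2.37 for Reep1, 14.9 ± 2.39 for Reep3, 7.68 ± 1.42 for Reep6 and 3.94 ± 0.877 for Reep4 (SD, n = 6). Reep2 and Reep5 overlapped in this order, and so did Reep6 and Reep4, through the low Reep6 library of control Sample_1170. In control hippocampus the level per kilobase was 148 ± 11.2 for Reep5, 64.6 ± 3.26 for Reep2, 34.6 ± 2.30 for Reep1, 6.70 ± 0.456 for Reep3, 4.16 ± 0.108 for Reep6 and 1.73 ± 0.278 for Reep4 (SD, n = 6), with no overlap between neighbours in the order.

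**Figure D1:**
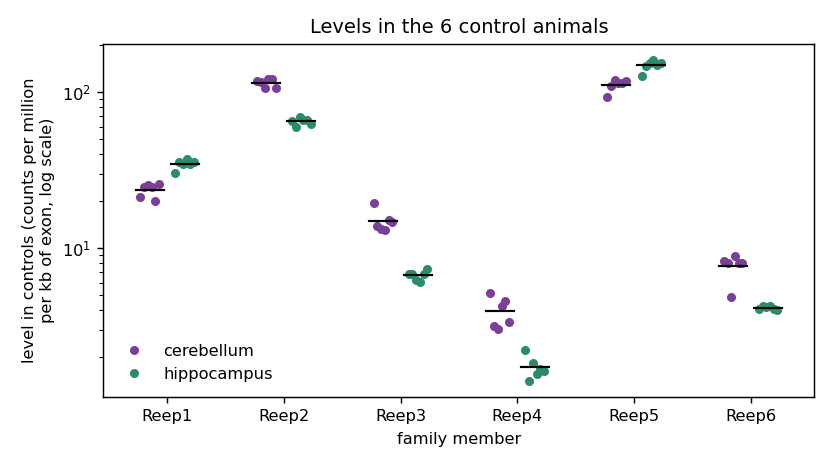
Levels of the 6 Reep genes in the 6 control animals, in CPM per kb of exon on a log scale, for cerebellum (purple) and hippocampus (green); each point is 1 library and each black line a mean. Reep1 and Reep5 lie higher in the hippocampus, and Reep2, Reep3, Reep4 and Reep6 lie higher in the cerebellum.

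All 6 genes differed between the tissues of control animals, where 71.9% of all tested genes did (36.7% higher in the cerebellum and 35.2% higher in the hippocampus, edgeR's quasi-likelihood test on 12 libraries, normalised together). Reep1, which links ER tubules to microtubules in neurons, was 1.56-fold higher in the hippocampus (log2 difference 0.64, SE 0.076, adjusted p = 4.8e-06). Reep5, the ubiquitous tubule former, was 1.42-fold higher there (log2 0.50, SE 0.074, adjusted p = 3.5e-05). The other 4 were higher in the cerebellum, by 1.66-fold for the neuronal Reep2, 2.09-fold for Reep3 and 2.14-fold for Reep4, the members known to clear ER from mitotic chromosomes, and 1.73-fold for Reep6 (adjusted p from 2.8e-08 to 4.3e-05). Reep6 averaged 15.01 CPM in cerebellum and 8.67 CPM in hippocampus in this joint scaling. With such a share of all genes different, the tissue difference is not particular to the family.

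The targeted gene was read in every library first. Pogz ranged from 89.6 to 129.6 CPM in control cerebellum, from 66.4 to 81.5 in cKO+/- and from 57.0 to 74.0 in cKO-/-. In the hippocampus it ranged from 89.0 to 92.8, from 74.0 to 80.2 and from 58.7 to 67.7 CPM in the same order. The 3 genotypes did not overlap in the hippocampus, and in the cerebellum only the mutants overlapped. The remaining counts are on the whole gene, of which only exons 13 to 19 are floxed.

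Library depth, as the sum of gene counts, ran from 21421850 to 32544929 in the cerebellum and from 17609321 to 45544188 in the hippocampus. Animals are named by their sample labels. The hippocampal library of cKO-/- Sample_1160 stood apart from the others (Reep2 at 330.5 CPM, against 111 to 141 CPM in the other 5 cKO-/- animals) and was left out of the hippocampal results, and the genotype values with it are given beside each Reep gene; the study excluded 1 RNA sample without naming it. The hippocampal library of control Sample_1129 carried cerebellar neuron markers at a summed 460 CPM, against 142 to 197 CPM in every other hippocampal library. Choroid plexus markers were highest within their groups in the hippocampal libraries of cKO-/- Sample_1385 (4960 CPM) and control Sample_1129 (4877 CPM). In the cerebellum the highest were cKO+/- Sample_1433 (3153 CPM) and cKO-/- Sample_936 (3014 CPM). These were not the only libraries with such markers. The mean of Ttr alone was 1125 CPM in control and 1114 in cKO-/- hippocampus, and 853 in cKO+/- cerebellum, more than the named library of each group can account for. The median sums of these groups were 38.2, 23.1 and 12.5 CPM. All controls had animal numbers from Sample_1120 to Sample_1219, while 3 of the cKO+/- and 4 of the cKO-/- animals had numbers outside this range.

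Reep6 was lowest where both Pogz alleles were deleted, in both tissues. In the cerebellum its level was 9.78 CPM at the lowest, 16.2 at the median and 17.9 at the highest in controls, 6.87, 11.4 and 13.2 CPM in cKO+/-, and 3.40, 5.63 and 7.14 CPM in cKO-/- (n = 6 each). All cKO-/- libraries lay below all controls, while cKO+/- overlapped both of the other genotypes. The 2 libraries behind this overlap were control Sample_1170 (9.78 CPM, the next control being at 16.1) and cKO+/- Sample_1120 (6.87 CPM). The hippocampal libraries of the same animals were within their groups, at 8.41 and 6.94 CPM.

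In the hippocampus the genotypes were narrower and did not overlap at all. Reep6 stood at 8.11, 8.34 and 8.65 CPM (lowest, median and highest) in controls (n = 6), at 5.75, 6.73 and 7.27 CPM in cKO+/- (n = 6), and at 3.53, 4.12 and 4.37 CPM in the 5 cKO-/- libraries used. The cKO-/- library of Sample_1160 was at 6.24 CPM, inside the cKO+/- range. These levels rest on 91 to 505 counts per cerebellar library and 68 to 389 per hippocampal library.

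**Figure D2:**
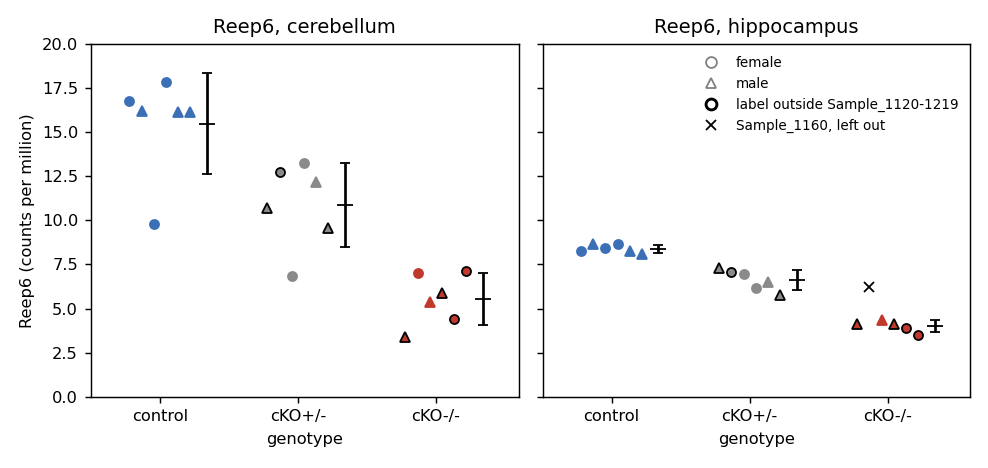
Reep6 in CPM by genotype in cerebellum (left) and hippocampus (right); circles are females, triangles males, black outlines mark animal numbers outside Sample_1120 to Sample_1219, the cross is the hippocampal library of Sample_1160, and bars at the right of each group are mean ± SD without that library. Controls are highest and cKO-/- lowest in both tissues, with 1 low control at 9.78 CPM in the cerebellum.

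Per allele lost, the fitted log2 level of Reep6 changed by -0.74 (SE 0.1001) in the cerebellum and by -0.52 (SE 0.049) in the hippocampus. Against controls, the log2 difference was -0.51 (SE 0.185) for cKO+/- and -1.49 (SE 0.192) for cKO-/- in the cerebellum, and -0.34 (SE 0.074) and -1.07 (SE 0.082) in the hippocampus. Between the genotypes that both carry Cre, cKO-/- minus cKO+/- was -0.98 (SE 0.192) and -0.73 (SE 0.082). These values come from the contrast that chose the gene. Across all genes, 6.55% were called lower with allele loss in the cerebellum and 2.35% in the hippocampus, and cKO-/- and controls did not overlap for 4.58% and 3.65%, from which nothing is read about Reep6.

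Within animals Sample_1120 to Sample_1219 alone (6 controls, 3 cKO+/- and, of the cKO-/-, 2 in the cerebellum and Sample_1219 in the hippocampus), the log2 change of Reep6 per allele lost was -0.63 (SE 0.126) and -0.43 (SE 0.058). With a covariate for that range it was -0.73 and -0.52, and with all 18 hippocampal libraries -0.47 (SE 0.060). Leaving out each animal in turn gave cerebellar values from -0.81 to -0.68 and hippocampal values from -0.53 to -0.49. In tissue RNA, fewer cells that express a gene and less RNA per cell cannot be told apart.

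As a share of the family's summed level per kilobase, Reep6 made up 2.79% ± 0.502 in control, 1.96% ± 0.415 in cKO+/- and 0.969% ± 0.25 in cKO-/- cerebellum (SD, n = 6 each). In the hippocampus the shares were 1.61% ± 0.083, 1.24% ± 0.113 and 0.717% ± 0.062 (SD, n = 6, 6 and 5). Reep2 and Reep5 together held the bulk in every genotype, with Reep5 at 42.2% ± 3.34 of cKO-/- cerebellum and 59.5% ± 2.52 of cKO-/- hippocampus.

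Whether cKO+/- lay halfway between the other genotypes on the log2 scale was not used in the choice and was tested for all 6 genes. For a gene that changes, a level halfway in CPM lies above this midpoint. None of the 6 departed from the midpoint in either tissue at an FDR of 0.05, by edgeR or DESeq2. Across all genes edgeR called 0.0214% in the cerebellum and 0% in the hippocampus. At an unadjusted p under 0.05 there were 0 of 6 in the cerebellum and 2 of 6 in the hippocampus. These were Reep6, where cKO+/- lay 0.19 above the midpoint on the log2 scale (SE 0.066, edgeR adjusted p = 0.484), and Reep3, where it lay at -0.17 from it (SE 0.069, edgeR adjusted p = 0.484). In the cerebellum the value of Reep6 was 0.24 (95% interval -0.10 to 0.57).

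Of the 5 paralogs, 1 was called in the cerebellum (Reep1, higher with allele loss) and 0 in the hippocampus, near the shares of all genes. Across all genes 13.7% were called in the cerebellum (7.11% higher) and 4.44% in the hippocampus (2.09% higher). These shares, of 1916 and 636 genes, depend on single animals, since leaving out 1 animal gave 935 to 2572 genes in the cerebellum and 286 to 937 in the hippocampus. By edgeR 1 of 5 was called in the cerebellum and 0 of 5 in the hippocampus, with 1 and 2 of 5 at an unadjusted p under 0.05, and DESeq2 gave the same counts. No paralog separated all cKO-/- from all control libraries in either tissue. Across all genes 4.58% did in the cerebellum and 3.65% in the hippocampus, so that 0 of 5 is near the background.

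Reep1 stood at 76.1, 93.8 and 98.0 CPM (lowest, median and highest) in control cerebellum, at 93.1, 103.5 and 112.6 in cKO+/- and at 95.4, 110.9 and 120.9 in cKO-/-. The groups overlapped, and 5 of 6 cKO-/- libraries exceeded all controls. The log2 change was 0.14 per allele lost (SE 0.039, edgeR adjusted p = 0.0233), opposite in sign to that of Reep6. The call was lost with a covariate for the range of animal numbers (0.087, adjusted p = 0.34) and within that range alone (0.096, adjusted p = 0.33). It was also lost without Sample_936, Sample_1129, Sample_1190 or Sample_1385 (0.12 to 0.13, adjusted p from 0.0505 to 0.0683). In the hippocampus Reep1 changed by 0.065 per allele lost (95% interval 0.016 to 0.11, edgeR adjusted p = 0.128), from a mean of 131 ± 8.73 CPM in controls to 144 ± 6.65 in cKO-/- (SD, n = 6 and 5). With all 18 hippocampal libraries the change was 0.021 (SE 0.044, edgeR adjusted p = 0.81).

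Reep2, the neuronal member that also causes spastic paraplegia when mutated, averaged 220 ± 13.1 CPM in control and 223 ± 30.6 in cKO-/- cerebellum (SD, n = 6). The log2 change per allele lost had a 95% interval of -0.076 to 0.091 in the cerebellum and -0.077 to 0.055 in the hippocampus. With all 18 hippocampal libraries the hippocampal value was 0.16 (SE 0.098, edgeR adjusted p = 0.39), against -0.011 without Sample_1160. In the cerebellum the cKO-/- libraries were spread from 174 to 255 CPM, beyond the controls on both sides.

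Reep3 and Reep4, the members known from mitotic ER clearance, were the only paralogs with a negative cerebellar value. Reep3 averaged 82.8 ± 13.3 CPM in control and 73.8 ± 8.15 in cKO-/- cerebellum, a log2 change of -0.086 per allele lost (95% interval -0.18 to 0.0029, edgeR adjusted p = 0.18). Control Sample_1129, at 108.5 CPM against 83.6 in the next control, set much of this value, which was -0.032 without it. Reep4 averaged 6.57 ± 1.46 and 5.31 ± 0.547 CPM, with a log2 change of -0.15 (95% interval -0.32 to 0.0099, edgeR adjusted p = 0.192). In the hippocampus the log2 changes of Reep3 and Reep4 were 0.060 and 0.021, with edgeR adjusted p = 0.481 and 0.911. The value of Reep3 was 0.0027 without Sample_1385, and with all 18 libraries the values were 0.0011 and 0.064. Without Sample_936 and Sample_1129 in turn, hippocampal Reep4 was at -0.0068 and 0.058. Reep4 rests on 46 to 161 counts per hippocampal library, and its interval there ran from -0.14 to 0.18.

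Reep5, the closest relative of Reep6, averaged 322 ± 28.2 CPM in control and 346 ± 22.7 in cKO-/- cerebellum (SD, n = 6). In the hippocampus it averaged 428 ± 32.4 and 479 ± 27.3 CPM (SD, n = 6 and 5). The log2 change per allele lost was 0.053 (95% interval -0.015 to 0.12) and 0.079 (95% interval 0.019 to 0.14), with edgeR adjusted p = 0.28 and 0.133. The cerebellar value was 0.029 without Sample_1129, 0.029 with the covariate for animal numbers and 0.030 within the range alone. The hippocampal value was 0.12 with all 18 libraries (edgeR adjusted p = 0.18) and 0.035 within the range alone. The hippocampal library of Sample_1160 held 647 CPM of Reep5, above every other library.

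**Figure D3:**
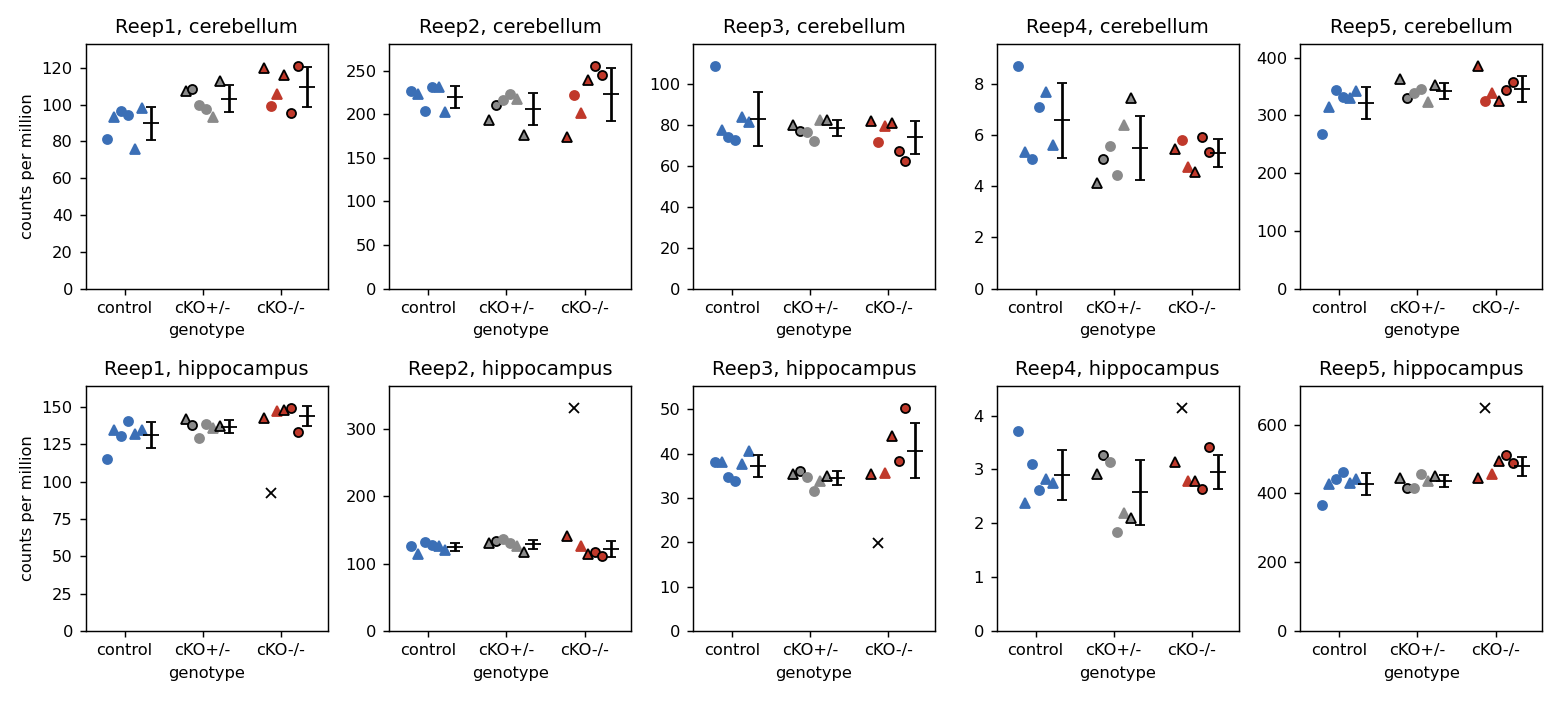
Reep1 to Reep5 in CPM by genotype, cerebellum above and hippocampus below, each panel on its own axis from 0; circles are females, triangles males, black outlines mark animal numbers outside Sample_1120 to Sample_1219, crosses are the hippocampal library of Sample_1160 and bars are mean ± SD without it. The genotypes overlap in every panel, and Sample_1160 lies outside the other hippocampal libraries for each gene.

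**Figure D4:**
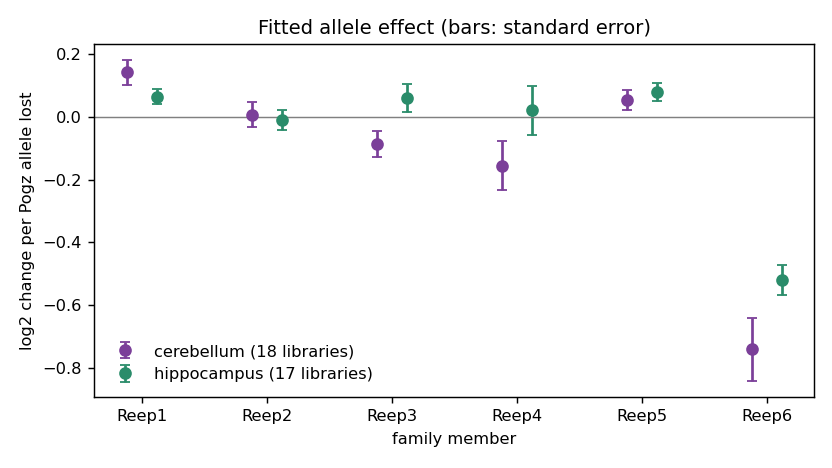
Fitted log2 change per Pogz allele lost for the 6 Reep genes, with standard errors, in 18 cerebellar (purple) and 17 hippocampal (green) libraries. Reep6 lies at -0.74 and -0.52, and the 5 paralogs lie between -0.15 and 0.14.

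The allele effect did not differ between the tissues for any of the 5 paralogs at an FDR of 0.05, by edgeR or DESeq2, where edgeR called 1.63% of all genes. At an unadjusted p under 0.05 there was 1 of 5, Reep3, whose hippocampal effect exceeded the cerebellar one by 0.13 on the log2 scale (SE 0.061, edgeR adjusted p = 0.31). That difference was 0.059 without Sample_1385 and 0.074 with Sample_1160. For Reep6 the hippocampal minus the cerebellar effect was 0.21 (SE 0.119), given as a value only.

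None of the 6 genes differed between males and females in either tissue by edgeR or DESeq2, and none had an unadjusted p under 0.05. Across all genes edgeR called 0.0499% in the cerebellum and 0.907% in the hippocampus. The log2 difference of males from females for Reep6 was -0.064 (95% interval -0.39 to 0.27) in the cerebellum and 0.010 (95% interval -0.15 to 0.17) in the hippocampus.

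Among the 6 other genes of both tables within 50 kb of Reep6, Pcsk4 and Plk5 fell with allele loss in the cerebellum while in the hippocampus 0 of 6 were called by edgeR (2 at an unadjusted p under 0.05, and 1 by DESeq2). In the cerebellum these were 2 of 6, by edgeR and by DESeq2, where 13.7% of all genes were called. Pcsk4, a proprotein convertase known from germ cells, lies 672 bases from Reep6 on the minus strand, so that the genes point away from each other. It ranged from 5.32 to 8.48 CPM in control cerebellum, from 3.99 to 6.43 in cKO+/- and from 2.65 to 5.13 in cKO-/-. No cKO-/- library reached a control, where 4.58% of all genes had no overlap between these genotypes in either direction. The log2 change was -0.35 per allele lost (SE 0.078, edgeR adjusted p = 0.0072). Plk5, a polo-like kinase relative expressed in brain, starts 20018 bases beyond the end of Reep6 and ranged from 64.9 to 114.9 CPM in controls and from 31.6 to 63.8 in cKO-/- (log2 change -0.42, SE 0.084, edgeR adjusted p = 0.0039). Neither passed with the covariate for animal numbers, where the log2 change was -0.30 for Pcsk4 (edgeR adjusted p = 0.125) and -0.33 for Plk5 (edgeR adjusted p = 0.0873), or within the range alone, where it was -0.31 and -0.27 (edgeR adjusted p = 0.104 and 0.105).

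In the hippocampus Pcsk4 stood at 3.20 ± 0.909 CPM in controls, 3.20 ± 1.03 in cKO+/- and 1.70 ± 0.252 in cKO-/- (SD, n = 6, 6 and 5). Its log2 change there was -0.39 per allele lost (SE 0.132, edgeR adjusted p = 0.105), and it passed with DESeq2 (adjusted p = 0.0343) and as cKO-/- against control (adjusted p = 0.0411), while with all 18 libraries it was -0.27 (edgeR adjusted p = 0.32). Plk5 had a log2 value of -0.14 (SE 0.0998, edgeR adjusted p = 0.438), which was -0.048 without control Sample_1129, the library with cerebellar markers, and 0.0047 with all 18 libraries. Rps15, a ribosomal protein gene, Apc2, a neuronal relative of the Apc tumour suppressor, and 2310011J03Rik had log2 changes between -0.053 and 0.021 over both tissues. Adamtsl5, 3352 bases beyond Reep6, had 0.012 in the cerebellum and -0.21 in the hippocampus (edgeR adjusted p = 0.167). The use of strand in the counting is not stated, but no exon of these genes overlapped Reep6.

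**Figure D5:**
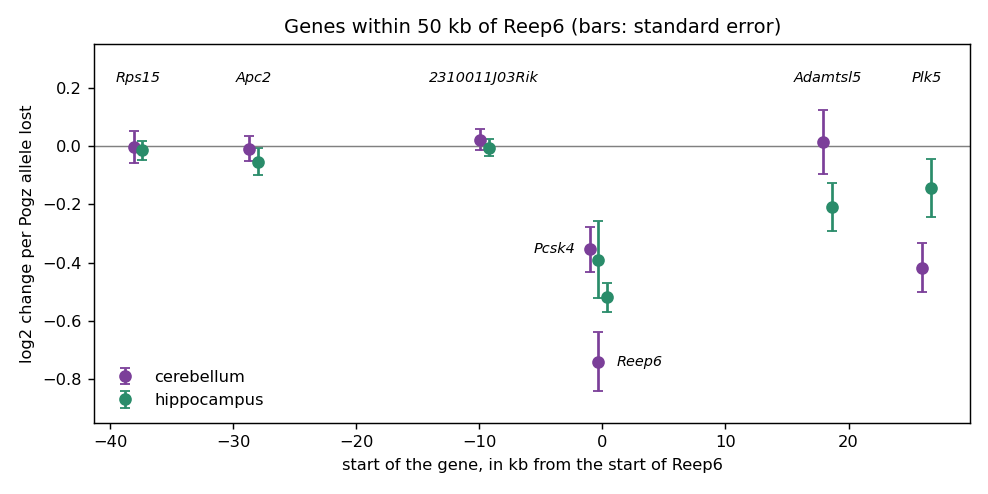
Fitted log2 change per Pogz allele lost (vertical axis, with standard errors) for genes within 50 kb of Reep6, against the distance of their start from that of Reep6 in kb, in cerebellum (purple) and hippocampus (green). Reep6, the adjacent Pcsk4 and Plk5 lie below 0 in both tissues, with Plk5 at -0.42 in the cerebellum and -0.14 in the hippocampus. Adamtsl5 lies at 0.012 and -0.21, and Rps15, Apc2 and 2310011J03Rik lie near 0.

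The genes most like Reep6 across libraries were ranked by the lower of the within-tissue Pearson r of log2 CPM (18 cerebellar and 17 hippocampal libraries, 13586 genes tested in both). The first 5 were Entpd2, an enzyme that hydrolyses extracellular ATP (r = 0.87 and 0.90), Tmem52, a transmembrane protein (0.79 and 0.83), Epor, the erythropoietin receptor (0.83 and 0.78), Kirrel2, an immunoglobulin-type adhesion protein (0.77 and 0.79), and Prodh, the mitochondrial proline dehydrogenase (0.77 and 0.79). Pogz was sixth, with 0.77 in the cerebellum and 0.96 in the hippocampus. The libraries share the genotype groups, so that any gene lower with allele loss ranks high and any gene higher with it ranks low. The r values and ranks are descriptions.

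Entpd2 averaged 6.50 ± 0.742 CPM in control, 4.32 ± 1.25 in cKO+/- and 2.26 ± 0.610 in cKO-/- cerebellum, and 12.1 ± 2.27, 10.5 ± 1.202 and 6.02 ± 0.792 CPM in hippocampus (SD, n = 6, and 5 for cKO-/- hippocampus). Tmem52 averaged 4.12 ± 1.16, 2.67 ± 0.705 and 1.48 ± 0.292 CPM in cerebellum over the same genotypes. Kirrel2 averaged 3.79 ± 0.732, 2.61 ± 0.954 and 1.46 ± 0.304 CPM there. The paralogs ranked far lower, at 3206 for Reep2, 5088 for Reep4, 10410 for Reep3, 12570 for Reep1 and 12994 for Reep5. Reep1 and Reep5, whose fitted values were positive per allele lost in both tissues, had negative r with Reep6. The r values were -0.62 and -0.55 for Reep1 and -0.51 and -0.67 for Reep5, from which nothing further is read.

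Other genes that shape ER tubules were called about as often as all genes in the cerebellum. Of 16 tubule-shaping genes (reticulons, atlastins and partners), 2 rose and 0 fell in the cerebellum by edgeR (12.5%, against 13.7% of all genes), with a median log2 change of 0.034 against 0.0009 over all genes, and 0 were called in the hippocampus by edgeR, where 4.44% of all genes were (median 0.030 against 0.0017, 3 at an unadjusted p under 0.05 and 1 by DESeq2). Rtn4, the reticulon also known as Nogo, rose by 0.17 per allele lost (SE 0.041, edgeR adjusted p = 0.0112), from 491 ± 45.4 to 623 ± 68.7 CPM between controls and cKO-/-. Lnp, which stabilises ER junctions, rose by 0.14 (SE 0.036, edgeR adjusted p = 0.0185). Neither gene was read with the covariate for animal numbers or within that range alone. The same holds for the other list genes and the cell type markers below. DESeq2 called both and also Zfyve27, named here after its value was seen, which had a log2 value of -0.076 (edgeR adjusted p = 0.0565).

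Of 16 genes of ER stress and folding, 1 fell in the cerebellum, Creld2, an ER stress-induced protein, by 0.23 per allele lost (SE 0.072, edgeR adjusted p = 0.0376), and 0 were called in the hippocampus by edgeR or DESeq2 (1 at an unadjusted p under 0.05). Creld2 averaged 24.8 CPM in control, 25.2 in cKO+/- and 17.8 in cKO-/- cerebellum, so its mean was lower in cKO-/- only. The share called was 6.25% in the cerebellum, below the 13.7% of all genes, and 4.44% of all genes were called in the hippocampus. The list medians were -0.062 and -0.057, and no gene of the list was called higher in either tissue.

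Of 12 genes for known cargo receptors of REEP proteins and for receptor transporters, 6 were tested in each tissue and 0 were called by edgeR or DESeq2 (2 at an unadjusted p under 0.05 in each), with medians of -0.090 and -0.012. Across all genes 13.7% and 4.44% were called, so that 0 of 6 is near the background. Of 12 photoreceptor genes, 1 was tested in the cerebellum and 3 in the hippocampus, and 0 were called by edgeR or DESeq2 (1 at an unadjusted p under 0.05 in each). Of 30 other genes of hereditary spastic paraplegia, 4 rose and 1 fell in the cerebellum (16.7% called, against 13.7% of all genes), and 2 rose in the hippocampus (6.67%, against 4.44%). They included E430025E21Rik, the strumpellin gene, which rose by 0.18 in the cerebellum and 0.11 in the hippocampus (edgeR adjusted p = 0.0081 and 0.047), and Cpt1c, a neuronal carnitine palmitoyltransferase, which fell by 0.21 in the cerebellum (edgeR adjusted p = 0.0075). Spg20 and Erlin2 rose by 0.16 and 0.084 in the cerebellum (edgeR adjusted p = 0.0263 and 0.0309). Kif5a, a kinesin heavy chain, rose by 0.16 in the hippocampus (edgeR adjusted p = 0.0196).

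Cell type markers moved with genotype in the same libraries, and their part in the Reep values was not tested. In the cerebellum 3 of 6 astrocyte markers (Aqp4, Gfap and Gja1), 3 of 8 oligodendrocyte markers (Opalin, Ermn and Cnp) and 2 of 6 microglial markers rose, where 7.11% of all genes did. Aqp4 averaged 462 CPM in control, 720 in cKO+/- and 730 in cKO-/- cerebellum. In the same order Gfap averaged 137, 290 and 280 CPM and Gja1 256, 315 and 324. For these astrocyte markers the cKO+/- mean was thus close to that of cKO-/-. Summed astrocyte markers ranged from 4442 to 4829 CPM in control and from 4597 to 6282 in cKO-/- cerebellum, and oligodendrocyte markers from 4024 to 5955 and from 4362 to 9577. Of 7 cerebellar neuron markers 1 fell (Barhl1), where 6.55% of all genes did. Their sum ranged from 5886 to 7536 CPM in controls and from 4769 to 7843 in cKO-/-. In the hippocampus 2 of 8 neuron markers fell (Wfs1 and C1ql2), and Aqp4, Cdh5 and Pecam1 (1 of 6 astrocyte and 2 of 6 endothelial markers) rose, where 2.35% of all genes fell and 2.09% rose. Of 8 oligodendrocyte markers 0 were called there by edgeR, 5 had an unadjusted p under 0.05 and DESeq2 called 2 (Opalin and Ermn). Their median log2 change was 0.18 per allele lost, against 0.0017 over all genes. In the cerebellum 1 of 6 endothelial markers fell (Ly6c1). Tph2 (1 of 2 tested genes of the brainstem list) and Neurod6 and Wfs1 (2 of 4 tested genes of the hippocampal list) rose there. No choroid plexus marker was called by edgeR in either tissue (1 and 0 at an unadjusted p under 0.05, and 1 and 0 called by DESeq2). Cerebellar neuron markers summed to between 4494 and 7843 CPM in cerebellar libraries, against at most 460 CPM in hippocampal ones, and hippocampal neuron markers, at 661 to 1131 CPM, exceeded their cerebellar level of 68 to 113 CPM in every hippocampal library used.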

How the data were processed

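Poly(A) RNA of 36 libraries was sequenced by the authors as 43 bp paired-end reads, aligned and counted with STAR (250a); the deposited values are raw counts per gene with exonic lengths. Methods and labels name mm9, but the table coordinates are those of GRCm38; strand use and the handling of multiply mapped reads are not stated. Columns were matched to animals by number and table tissue.

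From the deposited counts, genes that passed 1 CPM in 6 or more libraries entered the quasi-likelihood test of edgeR 4.0.16 (legacy=TRUE, TMM factors, R 4.3.3) with terms for sex and alleles lost, and Benjamini-Hochberg adjustment over all genes at an FDR of 0.05. Per-library CPM use TMM factors within each tissue. The hippocampal fit used 17 libraries, with filter and TMM factors from all 18. Tissues were compared in controls without an animal block; each animal gave both tissues, which pairs the libraries (same-animal deviations from group means correlated at a median r of 0.16, from -0.22 to 0.30, 13 of 17 animals above 0.1). DESeq2 1.42.0 and the settings of the closing section were alternatives. The fits were tested on simulated data.

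The named genes are the 6 members, Pogz, the genes within 50 kb of Reep6, the 5 most like it and up to 4 called members per list. The members and lists were chosen with earlier results of these data known. The genome supplied was NCBIM37, so no sequence was read by coordinate; the members Reep2 and Reep5 are given without sequence. Within a tissue each library is a separate animal, so p-values there measure the spread between animals. The main tissue and tissue by allele fits treated the 2 libraries of an animal as separate.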

Additional observations from a re-analysis of the deposited data

Results flagged for a closer look

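Values per group of 6, or of 5 cKO-/- hippocampal libraries, were screened with Dixon's test for a library far from the rest of its group. Of 36 groups (the 6 genes in 3 genotypes and 2 tissues) 2 were marked, and chance alone marks about 1.8. In control cerebellum, Reep6 of Sample_1170 was at 9.78 CPM, with the next control at 16.1. In control cerebellum, Reep3 of Sample_1129 was at 108.5 CPM, with the next at 83.6. The same animal had the highest Pogz level of all cerebellar libraries (129.6 CPM) and the lowest Reep5 level (268 CPM). Without Sample_1170 the cerebellar log2 change of Reep6 per allele lost was -0.81, and without Sample_1129 that of Reep3 was -0.032.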

How the results depend on the processing

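The 1 of 5 paralogs called in the cerebellum became 0 with a covariate for the range of animal numbers and 0 within Sample_1120 to Sample_1219 alone, and leaving out each animal gave 0 to 1. All genes called there fell from 1916 to 308 and 277, and in the hippocampus from 636 to 68 and 27 (246 with all 18 libraries). Leaving out 1 animal moved these counts by over 1.5 times without Sample_1129 (1161), Sample_1190 (1013), Sample_1371 (1234) or Sample_1385 (935) in the cerebellum and without Sample_1190 (365), Sample_1371 (286) or Sample_1379 (305) in the hippocampus. The cause was not tested; within the range alone fewer animals were fitted. Size factors by relative log expression, no filter, DESeq2, the bias-adjusted fit, no sex term and genotype as a factor kept both counts of called paralogs. For the genes of the lists and the cell type markers, DESeq2 was the only alternative read. Uncalled values near 0 changed sign. Within the range alone Reep2 was at -0.024 in the cerebellum, and in the hippocampus Reep2 was at 0.040, Reep3 at -0.081 and Reep4 at -0.088. With the covariate, hippocampal Reep2 was at 0.0039 and Reep4 at -0.037. With all 18 libraries, hippocampal Reep2 was at 0.16 and Plk5 at 0.0047, and the tissue by allele value of Reep2 was 0.14. Leaving out each animal moved Reep2 from -0.016 to 0.031 in the cerebellum and from -0.036 to 0.013 in the hippocampus, hippocampal Reep4 from -0.0068 to 0.058, and the tissue by allele values from -0.083 to 0.0057 for Reep2 and from -0.0037 to 0.035 for Reep5. With the animal as a block, 6 of 6 genes differed between tissues and 0 of 5 paralogs had a tissue by allele call, so the pairing changed no call. Reep6 and Reep4, at 46 to 505 counts per library, are the members most limited by depth.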
